A study of Arabidopsis thaliana with 6 samples.

Results

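The clade A protein phosphatases of type 2C (PP2C) of Arabidopsis thaliana are a family of 9 genes, ABI1, ABI2, HAB1, HAB2, HAI1, HAI2, HAI3, PP2CA (also called AHG3) and AHG1. They were picked by their locus identifiers, and all 9 were among the 21981 genes of the deposited expression table. Messenger RNA was sequenced from leaves of 4-week-old plants of the Col-0 accession, in 1 sample of each of 3 transgenic lines and in 3 wild-type samples. The series title places the work in the study of endoreplication and trichome branching. The labels do not name the transgene, its promoter or the number of insertions, and a line stands for 1 sample here. The protocol speaks of drought treatment in the same words for all 6 samples, so a difference in watering between transgenic and wild-type plants cannot be told apart from the labels. Samples of different lines come from different plants, but no label says that the 3 wild-type samples came from separate plants or pools. Spread among the 3 samples of a group, on which every p-value here rests, may thus be partly technical.

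Clade A PP2Cs are the brake of abscisic acid signalling. In the absence of the hormone they bind and dephosphorylate the SnRK2 kinases and hold them inactive. When abscisic acid accumulates, for instance in a drying leaf, PYR/PYL receptor proteins with bound hormone close over the active site of the phosphatase, and the freed kinases phosphorylate ABF transcription factors and guard cell ion channels. Transcripts of several of these phosphatases are themselves induced by abscisic acid, a negative feedback for which the HAI genes (highly ABA-induced) are named.

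Expression is given as FPKM, fragments per kilobase of transcript scaled by library size, as the authors deposited it. Summed FPKM over all genes were 1261802 to 1278449 in the transgenic lines and 970376 to 982620 in wild type, 1.3 times higher in the transgenic lines on average. Fold changes depend on how the samples are scaled. Results for the tested clade A members and for some other genes are thus also given after rescaling each sample to the same total, as in TPM. Where no TPM value is printed, a result is for the values as deposited only. TPM is a transcript's share of all transcripts in a sample. The median log2 fold change of all tested genes was 0.03 with the values as deposited and -0.31 after that rescaling. Leaf markers, among them Rubisco small subunit and activase genes, were abundant in every sample. The 5 of 6 in the table summed to 86629 to 89248 FPKM in the transgenic lines and 55722 to 61280 FPKM in wild type. Of 5 seed markers, 4 stayed under 0.365 FPKM in every sample, and SESA1 was at 2.76 to 5.23 FPKM in the transgenic lines and 4.82 to 7.31 FPKM in wild type. Pearson's r across the tested genes, which are not independent of one another, was 0.983 to 0.987 for samples of one group and 0.95 to 0.955 for samples of different groups.

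The sequences just upstream of the genes are shown first, because clade A transcripts are known for induction through abscisic acid response elements. The 250 bases before the annotated gene start were read from the TAIR10.1 reference genome and searched on both strands for ACGTG, the core of the abscisic acid response element that ABF factors bind. Of 27443 protein-coding genes searched in the same way, 22.9% held the core, and so did 6 of the 9 clade A genes. Below, PP2CA is shown as the most abundant member, HAI2 as a member with core matches whose level was under 1 FPKM but not 0, and ABI1, HAI1 and ABI2 as the called members without a match. Sequences run 5′ to 3′ towards the gene start, and capitals mark every match to ACGTG or its reverse complement CACGT.
PP2CA, chr3:3585851-3586100, minus strand: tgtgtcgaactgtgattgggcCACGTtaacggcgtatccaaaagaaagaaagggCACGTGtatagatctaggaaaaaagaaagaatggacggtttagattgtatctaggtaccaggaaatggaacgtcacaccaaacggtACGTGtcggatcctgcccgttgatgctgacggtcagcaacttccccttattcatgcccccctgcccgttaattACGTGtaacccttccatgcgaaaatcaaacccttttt
HAI2, chr1:2282829-2283078, minus strand: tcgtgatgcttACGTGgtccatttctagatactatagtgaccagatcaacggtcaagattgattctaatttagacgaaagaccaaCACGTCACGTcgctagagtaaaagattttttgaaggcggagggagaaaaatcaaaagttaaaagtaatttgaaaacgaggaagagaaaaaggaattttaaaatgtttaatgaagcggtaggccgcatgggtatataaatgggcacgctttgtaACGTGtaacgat
ABI1, chr4:13222377-13222626, minus strand: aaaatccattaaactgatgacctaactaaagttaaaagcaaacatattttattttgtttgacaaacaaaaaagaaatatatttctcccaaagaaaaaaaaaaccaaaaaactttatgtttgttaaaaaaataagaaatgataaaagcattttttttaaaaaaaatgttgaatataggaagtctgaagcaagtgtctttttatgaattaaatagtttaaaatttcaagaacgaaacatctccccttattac
HAI1, chr5:23896940-23897189, minus strand: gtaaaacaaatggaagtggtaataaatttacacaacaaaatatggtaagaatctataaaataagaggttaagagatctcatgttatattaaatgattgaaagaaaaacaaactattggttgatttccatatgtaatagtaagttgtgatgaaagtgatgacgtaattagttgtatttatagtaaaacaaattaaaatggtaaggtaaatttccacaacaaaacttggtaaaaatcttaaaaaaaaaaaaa
ABI2, chr5:23086872-23087121, plus strand: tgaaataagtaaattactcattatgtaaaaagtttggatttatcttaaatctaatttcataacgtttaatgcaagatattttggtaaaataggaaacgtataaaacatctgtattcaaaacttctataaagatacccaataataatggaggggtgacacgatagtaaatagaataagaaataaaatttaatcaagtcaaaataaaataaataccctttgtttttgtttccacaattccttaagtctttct

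PP2CA held matches at 5 positions, which merge into 4 separate stretches because the G-box CACGTG reads as the core on both strands. Its G-box began 196 bases before the gene start, and 6.49% of all promoters searched held a G-box. A match to CCGAC, the core of the dehydration-responsive element, began 106 bases before the start of PP2CA, against a share of 12% of all promoters with such a match. AHG1 also held a G-box, beginning 59 bases before its start, and a CCGAC match at 7 bases, while its transcript was listed at 0 in every sample. HAI2 held the core at 4 positions in 3 stretches, HAI3, AHG1 and HAB2 at 2 positions each and HAB1 at 1. The windows of ABI1, HAI1 and ABI2 held none of the 3 motifs, which says only that these letters are not in these windows. With the values as deposited, PP2CA alone held the core among the 4 members that passed the test below. HAB1 and HAB2, which did not pass, held it. So did HAI2, HAI3 and AHG1, which were too low to test, the last 2 listed at 0. Which members pass depends on the scaling, and a link between the core and the calls was not tested.

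PP2CA (AT3G11410) was the most abundant clade A transcript in every sample. It had 87.1, 84.7 and 83.9 FPKM in transgenic lines 1, 2 and 3, against 60.6, 57.8 and 62.2 FPKM in wild-type replicates 1, 2 and 3. All 3 lines lay above all 3 wild-type samples, by a margin several times the spread within either group. The mean was 85.2 ± 1.68 FPKM in the transgenic lines and 60.2 ± 2.24 FPKM in wild type (SD, n = 3 each), and the log2 fold change of log2(FPKM + 1) was 0.50 with an SE of 0.055 (limma adjusted p = 9.16e-05). The gene lies on chromosome 3 at 3583782 to 3585850, minus strand, with 4 exons in its 1 annotated transcript. PP2CA protein binds the kinase OST1 and the anion channel SLAC1 and acts in seeds and guard cells alike.

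ABI1 (AT4G26080), the founding member of the family, was found through a dominant mutant that no longer responds to abscisic acid. It had 50.6, 48.9 and 47.2 FPKM in the transgenic lines, against 33.1, 36.1 and 32.4 FPKM in wild type. The groups did not overlap, and the rise of ABI1 was 0.52 in log2 units, with an SE of 0.068 and a limma adjusted p of 0.000271. ABI1 lies on chromosome 4 at 13219915 to 13222376, minus strand, and shares 22 bases at its end with MEK1, a kinase gene on the other strand. The sources used here do not say whether counting used strand, so reads in those bases cannot be assigned. MEK1 was at 20.3 to 27.9 FPKM in the transgenic lines and 18.5 to 20.2 FPKM in wild type and was not called (log2 fold change 0.32, limma adjusted p = 0.0519).

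ABI2 (AT5G57050), the closest relative of ABI1 in this family, went the other way. It had 3.68, 3.46 and 2.899 FPKM in the transgenic lines, against 5.29, 5.20 and 4.96 FPKM in wild type. Every line lay below every wild-type sample, with line 3 the lowest. Its log2 fold change was -0.50 (SE 0.135, limma adjusted p = 0.0151), and it was the only clade A member called lower. Without wild-type replicate 1 its adjusted p was 0.0509 with a log2 fold change of -0.49. It lies on chromosome 5 at 23087122 to 23089631, plus strand, and overlaps no other annotated gene.

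HAI1 (AT5G59220), known also as a gene of leaf senescence, had 11.1, 12.2 and 10.102 FPKM in the transgenic lines, against 6.63, 6.99 and 7.56 FPKM in wild type. The groups did not overlap. HAI1 had the largest log2 fold change of the family, 0.59 (SE 0.111, limma adjusted p = 0.00234), and lies on chromosome 5 at 23894404 to 23896939, minus strand. HAI2 (AT1G07430) was barely present, with 0.401, 0.432 and 0.822 FPKM in the transgenic lines and 0.736, 0.829 and 0.489 FPKM in wild type. Its groups overlapped, and its mean of 0.618 FPKM over the 6 samples was under the minimum of 1 FPKM needed for testing. When tested without that minimum HAI2 was not called (log2 fold change -0.12, limma adjusted p = 0.567). HAI3 (AT2G29380), and AHG1 (AT5G51760), a phosphatase known from seeds and germination, were listed at 0 in all 6 samples. The absolute number of reads is unknown for these FPKM, so no detection limit can be given for either.

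HAB1 (AT1G72770) and HAB2 (AT1G17550) moved little. The reference annotation describes HAB1 by hypersensitivity to abscisic acid and HAB2 by homology to ABI2. HAB1 had 11.9, 10.7 and 12.7 FPKM in the transgenic lines, against 10.4, 9.59 and 9.24 FPKM in wild type, without overlap. HAB2 had 23.6, 21.6 and 24.2 FPKM in the transgenic lines, against 21.7, 18.5 and 18.2 FPKM in wild type, where replicate 1 reached above line 2. Neither passed the test. The log2 fold change of HAB1 was 0.25 with a 95% interval of 0.016 to 0.48 (limma adjusted p = 0.0842), and that of HAB2 was 0.24 with an interval of 0.029 to 0.45 (limma adjusted p = 0.0696). These intervals do not show that the genes were unaltered. Without wild-type replicate 1, the sample that overlaps the lines, HAB2 was called (log2 fold change 0.32, limma adjusted p = 0.0295). It was not called when any other single sample was left out (limma adjusted p 0.0650 to 0.188). Of 16 alternative fits of HAB2, 1 gave a call.

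**Figure D1:**
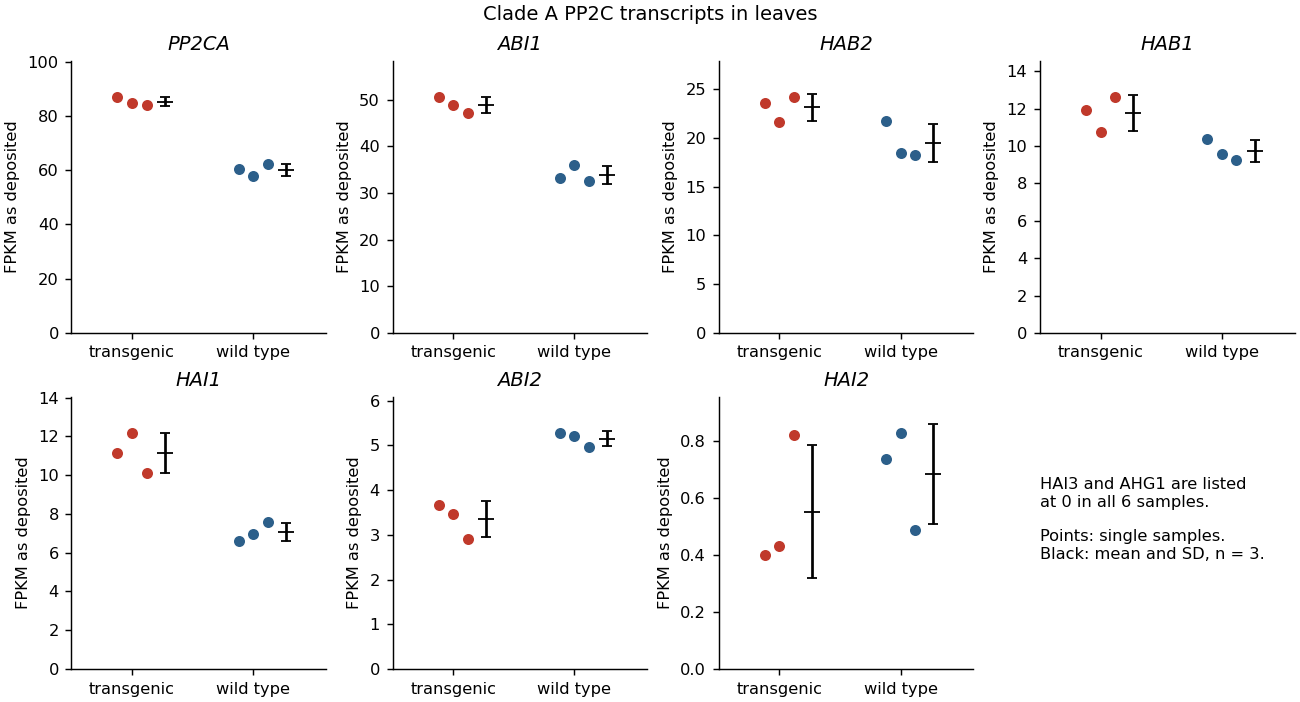
FPKM as deposited (vertical axis, from 0) of 7 clade A members in the transgenic lines and in wild type; points are samples, and black marks are the mean and SD of 3. PP2CA, ABI1, HAI1 and HAB1 lie higher in all 3 lines than in any wild-type sample, though HAB1 was not called. ABI2 lies lower in all 3, and HAB2 and HAI2 overlap.

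Of the 9 members, 6 reached the mean of 1 FPKM and were tested, each with every sample above that level in both groups. PP2CA, ABI1 and HAI1 were called higher, ABI2 was called lower, and HAB1 and HAB2 were not called. Among all 17093 tested genes, 40.7% were called, 25.0% higher and 15.7% lower, so 4 of 6 is not read as particular to the family. The groups did not overlap in 5 of the 6 tested members, 4 of them above and 1 below wild type, and in 52.2% of all tested genes, 30.2% above and 22.0% below. The median log2 fold change was 0.37 over the 6 tested members and 0.03 over all tested genes. HAI1, ABI1 and PP2CA had larger log2 fold changes than 88.1%, 85.5% and 84.6% of tested genes. That of ABI2 was lower than in 88.5% of them.

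The scale of the values mattered more than any other choice. After rescaling to TPM, 10270 genes were called, 1907 higher and 8363 lower, in place of 4273 higher and 2676 lower with the values as deposited, and the median of all genes moved to -0.31. On that scale the log2 fold change was 0.12 for PP2CA, 0.15 for ABI1 and 0.25 for HAI1, with limma adjusted p of 0.0804, 0.0967 and 0.0821, so that none of the 3 was called. TPM called 60.1% of all genes, 11.2% higher and 48.9% lower. HAB1 and HAB2 changed sign on the TPM scale, to -0.10 and -0.12, and were again not called. ABI2 had a log2 fold change of -0.79 with TPM and remained called (limma adjusted p = 0.000923). Relative to the median of all genes on the same scale, PP2CA stood at 0.43, ABI1 at 0.46, HAI1 at 0.56 and ABI2 at -0.48 after TPM, and at 0.47, 0.49, 0.56 and -0.53 with the values as deposited. Quantile normalization, which gave 3270 higher and 3448 lower genes, kept the calls of PP2CA (0.24), ABI1 (0.35) and HAI1 (0.63), while ABI2 was at -0.36 with a limma adjusted p of 0.0539. Over all genes, quantile normalization called 39.3% (19.1% higher, 20.2% lower), cyclic loess 39.2% (19.3% higher, 19.8% lower) and median-of-ratios scaling 40.5% (22.9% higher, 17.6% lower). Testing without a minimum called 32.1% (19.3% higher, 12.8% lower), and a minimum of 5 FPKM called 47.1% (31.5% higher, 15.6% lower). With median-of-ratios scaling, PP2CA (0.46), ABI1 (0.48) and HAI1 (0.55) were called higher and ABI2 (-0.53) lower. In that order the limma adjusted p was 0.000193, 0.000442, 0.00362 and 0.0105. The rises of PP2CA, ABI1 and HAI1 were thus called as deposited, after quantile normalization and with median-of-ratios scaling but not as TPM. The fall of ABI2 was called as deposited, as TPM and with median-of-ratios scaling but not after quantile normalization.

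**Figure D2:**
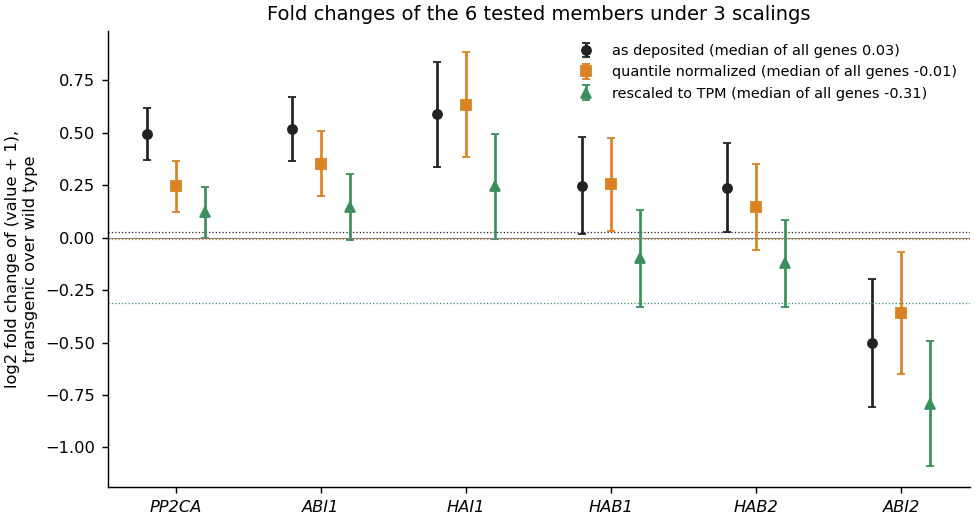
Log2 fold change, transgenic over wild type, of the 6 tested members with 95% limma intervals under 3 scalings; dotted lines mark the median of all tested genes on each scale. ABI2 is below 0 on all 3 scales, while HAB1 and HAB2 cross to below 0 after rescaling to TPM.

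Levels are given per length and can be ordered between genes within a sample. In both groups the order of mean FPKM was PP2CA, ABI1, HAB2, HAB1, HAI1, ABI2 and HAI2, with HAI3 and AHG1 at 0. In the transgenic lines the ranges of neighbours in this order did not overlap except for HAB1 and HAI1, whose means were 11.8 and 11.1 FPKM and which changed places in 1 of the 3 lines. In wild type no neighbours with a nonzero level overlapped. PP2CA made up 46.3 ± 0.188% of summed clade A FPKM in the transgenic lines and 44.2 ± 1.66% in wild type (SD, n = 3). ABI1 made up 26.6 ± 0.53% in the transgenic lines and 24.9 ± 1.59% in wild type, and HAB2 12.6 ± 0.733% in the transgenic lines and 14.3 ± 1.22% in wild type. ABI2 held 1.95%, 1.90% and 1.59% of the clade A sum in the transgenic lines, against 3.82%, 3.85% and 3.67% in wild type. Its share was the one that differed most in proportion among the tested members, and shares within a sample are the same on every linear scale. Quantile normalization and cyclic loess are not linear, and shares were not computed after them.

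The 9 members together had 188.4, 182.0 and 181.9 FPKM in the transgenic lines, against 138.5, 135.0 and 135.1 FPKM in wild type, 1.35 times higher. The summed FPKM of all genes differed by 1.3 times, while the median log2 fold change over all tested genes was 0.03. The part of that difference in the family sum was not tested. On the TPM scale the family summed to 147.4, 144.2 and 142.9 in the transgenic lines, against 141.8, 139.1 and 137.5 in wild type, a ratio of 1.04.

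Members with like names were compared in pairs by their log2 ratio within a sample, which is also the same on every linear scale. ABI1 and ABI2 share 79.5% of the aligned bases of their coding sequences, and HAB1 and HAB2 share 79.4%. All other pairs of members share 62.3% to 77.7%, with 70.7% for HAI1 and HAI2 and 77.7% for HAI2 and HAI3. The longest identical stretch was 33 bases between HAB1 and HAB2 and 26 bases between ABI1 and ABI2, and the sources used here do not say how reads that match several genes were assigned. The log2 ratio of ABI1 over ABI2 was 3.78, 3.82 and 4.03 in the transgenic lines, against 2.65, 2.79 and 2.71 in wild type. The groups did not overlap, and the ratio of the transcripts was 14.7 in the transgenic lines and 6.58 in wild type, a log2 difference of 1.16. The exact two-sided permutation test gave p = 0.1, the smallest that 3 against 3 samples allow, and 0.3 after adjustment over the 3 pairs. HAB1 over HAB2 was at -0.98, -1.01 and -0.94 in the transgenic lines, against -1.07, -0.95 and -0.98 in wild type, with overlap and a log2 difference of 0.021 (exact permutation p = 0.7). HAI1 over HAI2 was at 4.79, 4.82 and 3.62 in the transgenic lines, against 3.17, 3.07 and 3.95 in wild type. The HAI groups overlapped (log2 difference 1.01, exact permutation p = 0.2), and the low level of HAI2 sets this ratio.

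**Figure D3:**
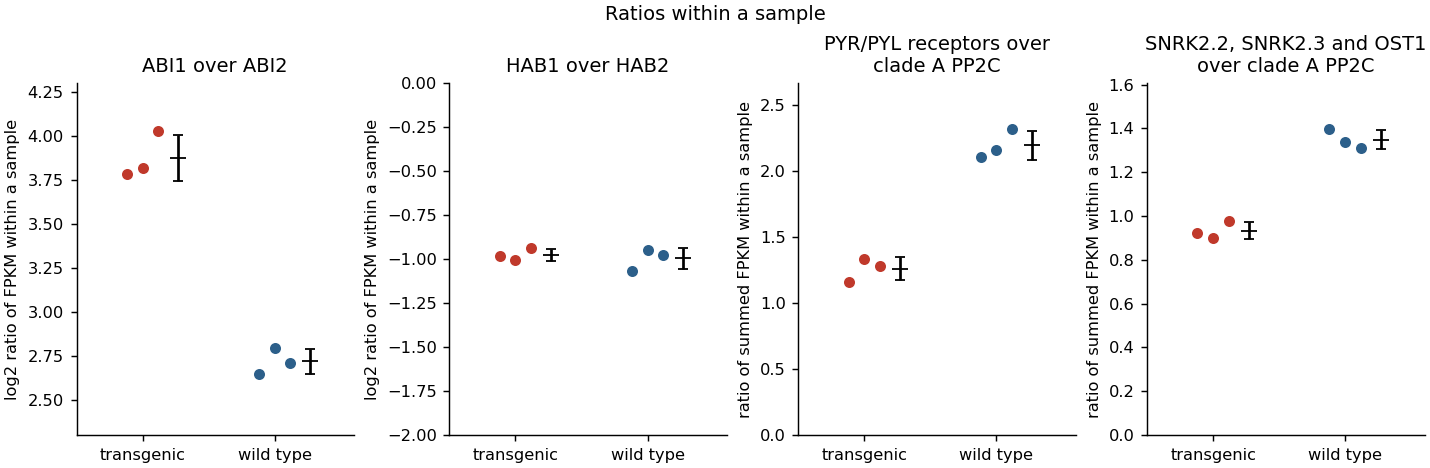
Ratios within a sample in the transgenic lines and in wild type: the log2 ratios ABI1 over ABI2 and HAB1 over HAB2 on axes of equal span, and the summed FPKM of 11 PYR/PYL receptors and of 3 SnRK2 kinases over that of the clade A phosphatases on axes from 0; black marks are the mean and SD of 3. ABI1 over ABI2 is higher in every line than in any wild-type sample, HAB1 over HAB2 overlaps, and both ratios to the phosphatases are lower in every line.

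The partners of the phosphatases were described from lists of pathway genes. Of 14 PYR/PYL receptor genes, 11 were in the table and 8 were tested, of which 1 rose and 4 fell, with a median log2 fold change of -0.31. Over all tested genes 25.0% rose and 15.7% fell. With TPM, 1 receptor gene was higher and 6 were lower, beside 11.2% and 48.9% of all tested genes. PYL8, a receptor best known from roots, had 36.5, 35.6 and 36.0 FPKM in the transgenic lines, against 73.7, 76.4 and 76.9 FPKM in wild type. Its log2 fold change was -1.05 (SE 0.056, limma adjusted p = 7.72e-07). PYL6 fell to 1.27 ± 0.507 FPKM in the transgenic lines, against 8.77 ± 0.29 FPKM in wild type, and PYL7 rose to 33.9 ± 0.856 FPKM in the transgenic lines, against 16.2 ± 0.683 FPKM in wild type. PYL4 and PYL5 fell as well, by 0.48 and 0.25. The 11 receptors summed to 218.8, 242.4 and 233.2 FPKM in the transgenic lines, against 291.8, 291.8 and 313.4 FPKM in wild type. Receptor transcripts therefore stood at 1.16, 1.33 and 1.28 times the clade A sum in the transgenic lines, against 2.11, 2.16 and 2.32 times in wild type, and the groups did not overlap. This ratio within a sample is the same on every linear scale and is given as a description of transcripts, with no test.

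The targets of the phosphatases, SNRK2.2, SNRK2.3 and OST1, are the kinases that abscisic acid activates most strongly. None of the 3 was called with the values as deposited. SNRK2.2 averaged 115.1 ± 3.88 FPKM in the transgenic lines and 127.6 ± 7.70 FPKM in wild type (limma adjusted p = 0.0751), with a log2 fold change of -0.15 as deposited and -0.52 after TPM. SNRK2.3 averaged 48.8 ± 2.17 FPKM in the transgenic lines and 47.5 ± 1.13 FPKM in wild type, with a log2 fold change of 0.038 as deposited and -0.33 after TPM. OST1, the guard cell kinase, averaged 7.93 ± 1.39 FPKM in the transgenic lines and 8.73 ± 0.765 FPKM in wild type, with a log2 fold change of -0.13 as deposited and -0.47 after TPM. On the TPM scale all 3 were called lower, with limma adjusted p of 8.45e-05, 0.00153 and 0.0162, as were 48.9% of all tested genes. Their summed FPKM was 0.921, 0.901 and 0.978 times the clade A sum in the transgenic lines, against 1.40, 1.34 and 1.31 times in wild type. Of all 10 SnRK2 genes, 9 were tested, 2 rose and 1 fell as deposited, beside 25.0% and 15.7% of all tested genes. SNRK2.9 fell to 1.78 ± 0.635 FPKM in the transgenic lines, against 7.68 ± 0.778 FPKM in wild type. SNRK2.1 and SNRK2.4, of the subgroup that abscisic acid does not activate, had log2 fold changes of 0.44 and 0.37 as deposited, which were 0.062 and -0.005 and not called after TPM.

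Downstream, 6 of 8 abscisic acid transcription factor genes were tested, 2 rose and 2 fell (median log2 fold change -0.19). The shares over all tested genes were 25.0% higher and 15.7% lower. With TPM, 1 of these factor genes was higher and 4 were lower, beside 11.2% and 48.9% of all tested genes. GBF3, a G-box binding factor, rose to 32.1 ± 2.89 FPKM in the transgenic lines, against 17.8 ± 2.05 FPKM in wild type. ABF1 and ABF4, direct substrates of the kinases, fell by 0.41 (SE 0.084) and 0.40 (SE 0.094). Of 19 tested genes known to be induced by abscisic acid, 11 rose and 2 fell as deposited, with a median of 0.66. Over all tested genes the median was 0.03, and 25.0% rose and 15.7% fell. ABR1, an ERF factor, rose by 1.61 (SE 0.074), the drought-inducible RD29A by 1.46 (SE 0.061) and RD20, a caleosin gene, by 1.31 (SE 0.084). After rescaling to TPM 10 of the 19 were higher and 5 lower, beside 11.2% and 48.9% of all tested genes. The 2 that fell were RD22 (log2 fold change -0.26), a dehydration-responsive gene, and HIS1-3 (-1.09), a drought-inducible linker histone. HB7 and HB12, homeobox genes known to activate clade A genes, were not called, with log2 fold changes of -0.14 and -0.15. These 4 were chosen after their values were seen.

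For the hormone itself, 6 of 10 synthesis genes were tested, of which 3 rose and 0 fell (median log2 fold change 0.32), where 25.0% of all tested genes rose and 15.7% fell. Beside NCED3 (log2 fold change 3.23, SE 0.075), which makes the committed step, ABA1 rose to 152.5 ± 1.21 FPKM in the transgenic lines, against 84.8 ± 1.71 FPKM in wild type, and AAO3, the last enzyme, to 7.86 ± 0.719 FPKM in the transgenic lines, against 5.52 ± 0.145 FPKM in wild type. The AAO3 call ended after rescaling to TPM (log2 fold change 0.11, limma adjusted p = 0.422). On that scale 2 of the synthesis genes were higher and 1 was lower (median log2 fold change -0.027), beside 11.2% and 48.9% of all tested genes. Of 3 tested genes of breakdown and release, CYP707A3, a hydroxylase that inactivates abscisic acid, rose by 0.49 as deposited and stood at 0.11 after TPM, and the other two were not called. Of 9 genes listed for action on the phosphatase proteins, 5 rose and 0 fell as deposited, while 2 were higher and 3 lower after TPM, a scale on which 11.2% of all tested genes were higher and 48.9% lower. PUB12, a ubiquitin ligase that targets ABI1, rose to 11.01 ± 0.833 FPKM in the transgenic lines, against 3.65 ± 0.43 FPKM in wild type. DOG1, a seed dormancy protein that binds AHG1, rose by 0.56 (SE 0.128) while AHG1 itself was listed at 0, and was at 0.24 and not called after TPM. The listed locus AT1G67800 rose by 0.93 (SE 0.098). Of the 4 guard cell channel genes 2 were tested, and GORK, the outward potassium channel, had a log2 fold change of -0.43 (limma adjusted p = 0.0458) that was not called when any single sample was left out (limma adjusted p 0.0707 to 0.148) or after quantile normalization (0.189).

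**Figure D4:**
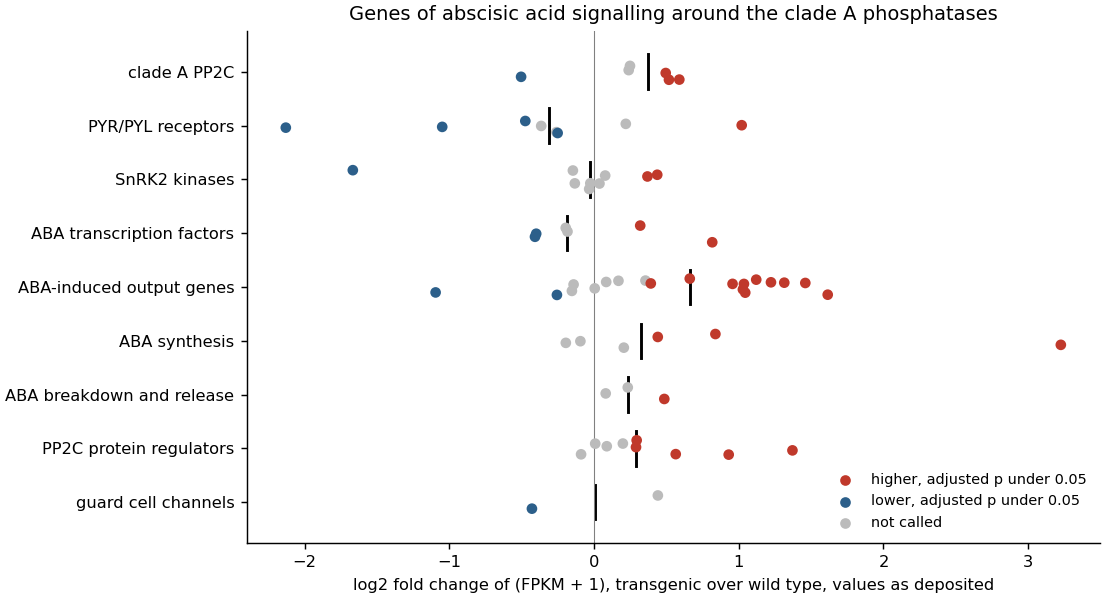
Log2 fold change, transgenic over wild type, of each tested gene in the clade A family and in 8 lists of its pathway, values as deposited; red and blue points passed a limma adjusted p under 0.05, grey points did not, and black bars are list medians. The clade A median is 0.37, that of the receptors -0.31 and that of the abscisic acid-induced genes 0.66.

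In bulk leaves, fewer cells of a type and less RNA per cell cannot be told apart. Of 6 guard cell markers, 5 were tested and 2 rose, where 25.0% of all tested genes rose and 15.7% fell. The guard cell list summed to 225.4 to 266.1 FPKM in the transgenic lines and 120.8 to 139.5 FPKM in wild type. Most of it came from AT1G22690, which rose. HT1, a kinase of stomatal CO2 response, rose as well, with 2.73 to 6.06 FPKM in the transgenic lines and 1.24 to 2.01 FPKM in wild type (log2 fold change 0.94, limma adjusted p = 0.013). KAT1, the inward potassium channel, lay higher in every line than in any wild-type sample but was not called (log2 fold change 0.44, limma adjusted p = 0.0732). MYB60 and FAMA overlapped and were not called, at log2 fold changes of 0.32 and -0.18, and SLAC1 was at 0.446 to 0.683 FPKM in the transgenic lines and 0.836 to 1.49 FPKM in wild type. The meristem and flower markers summed to 14.1 to 21.2 FPKM in the transgenic lines and 36.3 to 40.0 FPKM in wild type. Most of that difference came from STM, a meristem gene, which had 9.87 ± 0.322 FPKM in the transgenic lines and 27.4 ± 1.26 FPKM in wild type and was the 1 called gene of 5 tested there. AP1, PI and SEP3 had log2 fold changes of -0.42, -0.46 and -0.26 and AP3 of 0.067, none of them called. The root markers, nearly all from PYK10, summed to 68.3 to 74.8 FPKM in the transgenic lines and 107.6 to 114.9 FPKM in wild type. The part of these shifts in the clade A values was not tested.

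The genes whose values over the 6 samples were most like those of PP2CA were AT1G42430, GRF1, EXL2, AGT and AT5G21090. Likeness was the Euclidean distance between log2(FPKM + 1) profiles, each centred on its mean, among all 17093 tested genes, and these 5 were at distances of 0.026 to 0.043. Their log2 fold changes were 0.48 to 0.50, as near to that of PP2CA as the measure requires.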

How the data were processed

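Leaf mRNA of 3 transgenic lines and 3 wild-type samples was sequenced on an Illumina platform after oligo(dT) selection, per the labels' protocols. The deposited values are FPKM, made by the authors, in a single table. TopHat2, DESeq and TAIR10 are named, without versions or roles, per the submitters' processing notes. The sources used here do not give the program that computed FPKM, the annotation or the use of strand. Read numbers are unknown, so precision rests on the spread among 3 samples per group. Of 21981 genes, 21548 were matched by locus to TAIR10.1, which gave symbols, coordinates and sequences (RefSeq annotation). All 6 columns were used.

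Groups were compared on log2(FPKM + 1) with limma 3.58.1 (R 4.3.3), with no covariate and a mean-variance trend, for the 17093 genes averaging 1 FPKM or more over all samples. Calls were made at p under 0.05 after Benjamini-Hochberg adjustment over all tested genes. Fold changes are transgenic over wild type and understate the change of low genes. The script was tested on simulated data. Coding sequences were aligned in pairs with Biopython 1.88, and ratios were tested by exact permutation in SciPy 1.17.1.

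The members and lists were chosen with earlier results of these data known. The text names all members, up to 3 called genes without overlap per list, SNRK2.2, SNRK2.3, OST1, NCED3 and the 5 profiles nearest to PP2CA; other genes complete a count or check a tissue. Alternatives were other pseudocounts, filters and scalings, no trend, the title number as a block, and each sample left out.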

Additional observations from a re-analysis of the deposited data

How the results depend on the processing

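Rescaling to TPM moved the results most, and 0 clade A members were higher in place of 3. In the 8 pathway lists, 25 of 62 tested genes were higher and 10 lower as deposited, and 16 were higher and 27 lower after TPM. Over all tested genes, 25.0% were higher and 15.7% lower as deposited, and 11.2% were higher and 48.9% lower after TPM. The 1 lower member was not called (0 lower) after quantile normalization, after cyclic loess, at a mean of at least 5 FPKM, where ABI2 is not tested, or without wild-type replicate 1. Leaving out each sample in turn gave 5890 to 6378 called genes, 3 to 4 higher and 0 to 1 lower clade A members, 23 to 24 higher and 8 to 10 lower pathway genes, and log2 differences of 1.08 to 1.20 for ABI1 over ABI2, -0.014 to 0.046 for HAB1 over HAB2 and 0.81 to 1.41 for HAI1 over HAI2. Signs turned after TPM for HAB1 (-0.098), HAB2 (-0.123), SNRK2.4 (-0.0047) and SNRK2.3 (-0.334), for SNRK2.3 also after quantile normalization (-0.142), median-of-ratios (-0.00078) and cyclic loess (-0.152), and for OST1 without line 2 (0.00102, with -0.221 at the other end on leaving out line 1). Over their alternatives the limma adjusted p ran from 0.000923 to 0.0572 for ABI2, from 6.2e-05 to 0.0804 for PP2CA, from 0.000181 to 0.0967 for ABI1 and from 0.00191 to 0.0821 for HAI1. Of 588 values of 37 single genes under the alternatives, 547 kept direction and side of the threshold, 26 lost a call, 7 gained one and 8 turned sign. Apart from the reasons given, the cause was not tested. With the title number as a replicate block, 6706 genes were called, 3 clade A members higher and 1 lower. The labels do not say that the numbers pair samples, and deviations of same-numbered samples correlated at -0.035, 0.049 and -0.023. Unknown read numbers limit what can be said of HAI2, HAI3 and AHG1.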

Other observations

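Outside clade A the reference annotation names 61 further genes as protein phosphatase 2C, of which 54 were in the table and 49 tested. Of these, 19 rose and 5 fell as deposited, with a median log2 fold change of 0.16, where 25.0% of all tested genes rose and 15.7% fell. After rescaling to TPM 11 were higher and 18 lower, where 11.2% of all tested genes were higher and 48.9% lower. AP2C1, a phosphatase that acts on stress MAP kinases, had 294.2, 259.8 and 276.6 FPKM in the transgenic lines, against 148.4, 155.9 and 146.7 FPKM in wild type. In every sample this single gene was above the summed level of clade A. AP2C1 rose by 0.88 (SE 0.056, limma adjusted p = 2.45e-06). AT1G07160 was at 22.5 ± 1.27 FPKM in the transgenic lines and 1.26 ± 0.206 FPKM in wild type. PP2C5 had 2.98, 1.32 and 2.54 FPKM in the transgenic lines, against 0.161, 0.353 and 0.263 FPKM in wild type, and reached the minimum for testing only through the transgenic lines. AT5G02760, chosen after its values were seen, had 0.386, 0.640 and 1.51 FPKM in the transgenic lines, against 4.69, 6.23 and 6.31 FPKM in wild type, and reached that minimum only through wild type. The groups did not overlap in AP2C1 and AT1G07160, nor in 52.2% of all tested genes.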
